A study of Homo sapiens with 8 samples.

Results

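PARP9, PARP10, PARP12 and PARP14 are 4 members of the poly(ADP-ribose) polymerase family that are known as interferon-stimulated genes, and DTX3L is the ubiquitin ligase that binds PARP9. The 5 genes were taken from the deposited expression table by their symbols, out of 60664 genes listed there, and all 5 were expressed highly enough to be tested with 14899 genes in all. RNA had been sequenced from THP-1 cells, a human acute monocytic leukemia cell line that carries the label WT throughout. The parental cells and a DAC-resistant derivative were each given DMSO or 1 µM DAC (decitabine, a cytidine analogue that is built into DNA and traps DNA methyltransferases) for 6 days. This gave 4 groups (either cell type with either treatment), each with 2 libraries labelled as biological replicates. The DAC-resistant cells had been selected from the parental line by repeated rounds of DAC and grown without the drug before the experiment, so their DMSO group is not a DAC-naive one. They are a selected population of 1 cell line, and whether it was cloned is not given in the sources used here.

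PARP enzymes take ADP-ribose from NAD+ and attach it to proteins. The PARPs described here are members that, where they are active, attach single ADP-ribose units and not long chains. PARP9 and DTX3L form a pair of proteins with ubiquitin ligase activity that takes part in DNA repair and in interferon signalling. PARP14 carries macrodomains, which read or remove ADP-ribose, PARP10 carries ubiquitin-binding motifs, and PARP12 carries zinc fingers that bind RNA. Type I interferon acts through transcription factors, STAT2 and IRF9 among them, that bind the interferon-stimulated response element (ISRE) in promoters.

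Of the 5 genes, 3 lie close together on chromosome 3. In GRCh38 with the GENCODE annotation, PARP9 (ENSG00000138496) covers chr3:122527924-122564577 on the minus strand and DTX3L (ENSG00000163840) covers chr3:122564338-122575203 on the plus strand. The 2 genes are arranged head to head, and their first parts overlap over 240 bases. PARP14 (ENSG00000173193) lies further along at chr3:122680839-122730840 on the plus strand, with PARP15 between it and DTX3L. PARP12 (ENSG00000059378) covers chr7:140023749-140062951 on the minus strand.

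RefSeq promoter windows (GRCh38.p14, from 250 bases before to 50 bases after an annotated start) were given for 4 of the 5 genes, PARP9, DTX3L, PARP14 and PARP12. They are shown because these genes rose together with DAC in parental cells, as described further on. Capitals mark matches to the ISRE core that was searched on either strand, which is GAAA, any 2 bases and GAAA again. A window of PARP9 and the window of DTX3L share 137 bases at chr3:122564251-122564387 (plus strand, the strand of DTX3L), and this shared stretch holds 1 match. The PARP14 window is chr3:122680589-122680888 on the plus strand and the PARP12 window is chr7:140062902-140063201 on the minus strand, each written 5′ to 3′ along its gene.
PARP9 and DTX3L, shared: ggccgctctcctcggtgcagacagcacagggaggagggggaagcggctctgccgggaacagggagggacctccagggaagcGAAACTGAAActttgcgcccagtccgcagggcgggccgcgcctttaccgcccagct
PARP14: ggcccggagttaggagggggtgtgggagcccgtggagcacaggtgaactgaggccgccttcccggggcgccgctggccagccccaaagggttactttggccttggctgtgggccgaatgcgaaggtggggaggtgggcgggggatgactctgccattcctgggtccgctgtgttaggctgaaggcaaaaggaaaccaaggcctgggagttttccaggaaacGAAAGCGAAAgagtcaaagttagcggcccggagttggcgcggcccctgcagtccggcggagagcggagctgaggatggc
PARP12: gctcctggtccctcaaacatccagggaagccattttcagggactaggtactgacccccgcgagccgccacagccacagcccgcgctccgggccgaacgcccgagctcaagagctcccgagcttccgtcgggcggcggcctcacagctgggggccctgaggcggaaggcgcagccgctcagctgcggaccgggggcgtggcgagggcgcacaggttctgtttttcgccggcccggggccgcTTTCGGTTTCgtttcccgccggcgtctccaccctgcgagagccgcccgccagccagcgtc

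The single match between PARP9 and DTX3L starts 6 bases before the annotated start of DTX3L. Read along the other strand, the same bases start 41 bases before a start of PARP9 of which the window is given. The last bases of the match lie inside DTX3L, and the whole match lies inside the span of PARP9 given above, which begins at a start further out. In PARP14 the match starts 29 bases before the start, and in PARP12 it starts 10 bases before it and reads on the opposite strand. A second annotated window of PARP9, chr3:122564735-122565034, holds none. All 4 genes with a window thus had a match in at least 1 window, with PARP9 and DTX3L sharing theirs, while 3.57% of all 35116 windows of the same length and 4.38% of the 27305 genes in that table had one. A second pattern that was searched, TTCNNNGAA with N for any base, matched in the PARP14 window only. Of all those genes 9.38% had a match to it. A match is a run of letters and was not tested for binding.

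The levels are given as FPKM, reads scaled by the exon length of the gene and by the total of the library. The library totals behind them, read from the steps between the values, were 27480502 to 31916835 reads. The 2 libraries of a group differed from each other by more than sampling noise over all genes. The monocytic origin of the cells was visible in every group, with 7 to 10 of 10 monocytic marker genes at 1 FPKM or more in both libraries, CEBPA and SPI1 highest among them. The summed level of these 10 markers was 261 to 266 FPKM in parental cells under DMSO and 382 to 391 under DAC. In DAC-resistant cells it was 194 to 208 FPKM under DMSO and 205 to 211 under DAC. The sum thus stood highest in the group in which the 5 genes stood highest, and its part in the results was not tested. With DAC in parental cells 9 of the 10 markers were higher and 1 lower at an adjusted p under 0.05 in limma, and 3 were raised by both thresholds given further on, CD14, LYZ (log2 fold change 1.91) and MPO (1.42). The one lower was CD33, at means of 9.83 FPKM without and 7.86 with DAC (-0.29, adjusted p = 0.0036). CD14 had a mean of 1.52 FPKM in DMSO-treated and 19.9 in DAC-treated parental cells, and 0.869 and 1.10 in DAC-resistant cells without and with DAC. Between the cell lines with DMSO, 7 of the 10 markers were lower and 0 higher in DAC-resistant cells by the adjusted p. Of all genes tested 26.2% were lower there. ITGAM (-1.40), LYZ (-1.31) and CD33 (-1.03) were lowered by both thresholds. The part of this difference in the results was not tested. Summed over 4 genes each, T cell markers were at 0 to 0.0103 FPKM in DMSO-treated parental cells, 0.463 to 0.559 after DAC and at most 0.304 in DAC-resistant cells. Erythroid markers were at 0.12 to 0.123, 0.275 to 0.574 and at most 0.145 FPKM in the same order. Both sums thus stood highest in DAC-treated parental cells, at a low level, and their part in the results was not tested. CD3D was at 0 in both libraries of every group but parental cells with DAC. Epithelial markers summed to 0.11 to 0.186 FPKM in parental cells under DMSO, 1.45 to 1.93 under DAC and at most 0.195 in DAC-resistant cells. They thus moved with the 5 genes at a low level, with KRT8, the 1 of these 4 that was tested, raised by DAC in parental cells (1.01, adjusted p = 4.4e-04), and their part in the results was not tested. The 4 markers of plasma cells summed to 2.31 to 2.47 FPKM in DMSO-treated and 6.73 to 7.04 in DAC-treated parental cells, and to 6.19 to 6.48 and 6.83 to 7.54 in DAC-resistant cells without and with DAC, most of it from JCHAIN and SDC1. The 4 markers of fibroblasts summed to 0.644 to 0.693, 8.90 to 9.31, 10.1 and 8.91 to 9.70 FPKM in the same order, most of it from COL1A1 and LUM. The fibroblast marker COL1A2 was at a mean of 0.604 FPKM in DAC-treated parental cells and at most 0.0104 in the other groups, and DCN had means of 0, 0.38, 0.163 and 0.263. The B cell markers summed to 3.73 to 4.45 FPKM in DMSO-treated parental cells, 4.21 to 4.97 after DAC and at most 1.39 in DAC-resistant cells. In such bulk RNA, fewer cells with a transcript and less of it per cell cannot be told apart.

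The first comparison asked what DAC did to the 5 genes in parental cells. All 5 rose, by between 3.42-fold (PARP14) and 9.29-fold (PARP9) in mean FPKM, and together they went from 46.9 and 47.0 to 217 and 225 summed FPKM. In this comparison 6.66% of all genes tested were raised and 2.64% lowered, which here means that the unadjusted limma p was 0.01 or less and the log2 fold change 1 or more in size. At a Benjamini-Hochberg adjusted p under 0.05, 33.6% were higher and 24.1% lower. This last balance turned with the scaling, from 5005 higher and 3588 lower genes to 3995 and 4855 under quantile normalization, 3991 and 4615 under upper-quartile scaling and 4175 and 4922 with voom. All 5 of the 5 genes met both rules. The median of their log2 fold changes was 2.09, beside 0.06 over all genes tested.

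PARP9, the partner of DTX3L, stood at 4.84 and 4.85 FPKM in the 2 parental libraries with DMSO and at 44.8 and 45.1 with DAC. The groups lay far apart, and the DAC replicates differed by less than 1 FPKM. The log2 fold change, on log2(FPKM + 1), was 2.98 (SE, the standard error, 0.056, limma adjusted p = 1.6e-07), the highest of the 5. The reads behind these values were 1371 and 1314 with DMSO and 11014 and 11081 with DAC, over 8938 bases of exon.

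DTX3L, the ubiquitin ligase, had 16.3 and 16.2 FPKM with DMSO and 69.1 and 69.7 with DAC. Its FPKM was the highest of the 5 before and after treatment. Its log2 fold change was 2.03 (SE 0.048, limma adjusted p = 3.9e-07). PARP14, the macrodomain PARP, had 15.3 and 15.1 FPKM with DMSO and 50.9 and 53.0 with DAC. Its log2 fold change of 1.71 (SE 0.036, limma adjusted p = 2.5e-07) was the smallest of the 5, and its 95% interval of 1.62 to 1.80 lay below those of the other genes.

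PARP10 (ENSG00000178685), a mono-ADP-ribosyltransferase whose gene covers chr8:143977153-144012772 on the minus strand, had 8.16 and 8.39 FPKM with DMSO and 36.9 and 40.2 with DAC. The log2 fold change was 2.09 (SE 0.079, limma adjusted p = 3.0e-06). PARP12, the zinc finger PARP and the least abundant of the 5, had 2.35 and 2.51 FPKM with DMSO and 15.3 and 16.5 with DAC. Its log2 fold change was 2.30 (SE 0.091, limma adjusted p = 3.6e-06). Adding 1 FPKM understates the change of a gene this low, and the ratio of its means was 6.56. The intervals of PARP12 (2.08 to 2.52), PARP10 (1.90 to 2.28) and DTX3L (1.91 to 2.15) overlapped, while that of PARP9 (2.84 to 3.11) lay above them all. Differences between genes were not tested, so the ranks given next do not establish an order. Ranked by log2 fold change among all genes tested, PARP9 was number 101 from the top, PARP12 number 198, PARP10 number 255, DTX3L number 276 and PARP14 number 369.

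**Figure D1:**
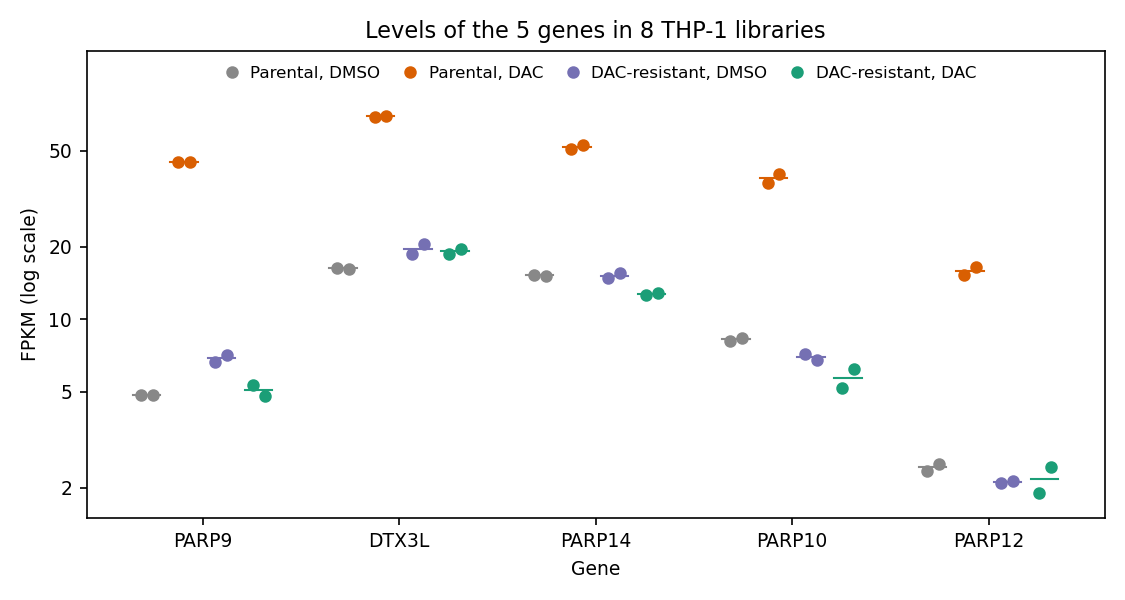
FPKM (vertical axis, log scale) of PARP9, DTX3L, PARP14, PARP10 and PARP12 in the 8 libraries, with a point for each library, a bar at the mean of each group of 2 and colours for the 4 groups. For each gene the libraries of DAC-treated parental cells stand above all others, as for PARP9 at 44.8 and 45.1 against at most 7.13.

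The next comparison asked whether DAC did the same in DAC-resistant cells. It did not raise any of the 5 genes. The highest ratio of means was 1.03, for PARP12. Over all genes tested, 0.114% were raised and 0.121% lowered by both thresholds, and 5.88% were higher and 5.35% lower at an adjusted p under 0.05 (876 and 797 genes, which became 1186 and 610 when rescaled to TPM and 1376 and 1584 with voom). Of the 5 genes 0 were raised or lowered by limma. At an adjusted p under 0.05, 2 of the 5, PARP9 and PARP14, were lower with DAC. The median log2 fold change of the 5 was -0.24, beside 0.01 over all genes tested.

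In DAC-resistant cells PARP9 had 6.66 and 7.13 FPKM under DMSO and 5.36 and 4.79 under DAC. The log2 fold change was -0.38 (SE 0.056, limma adjusted p = 0.011). PARP14 had 14.8 and 15.5 FPKM with DMSO and 12.6 and 12.8 with DAC, again without overlap, a log2 fold change of -0.24 (limma adjusted p = 0.011). Neither call held at an adjusted p under 0.05 when only the 4 DAC-resistant libraries were fitted (0.091 for PARP9 and 0.067 for PARP14). Both were also lost without the DAC-resistant DMSO library 2 (0.059 and 0.06) or the DAC library 2 (0.051 and 0.062), and that of PARP14 without the DAC library 1 (0.064). The log2 fold changes themselves stayed at -0.46 to -0.31 for PARP9 and -0.27 to -0.21 for PARP14 over all alternatives run.

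PARP10 had 7.15 and 6.75 FPKM with DMSO and 5.18 and 6.19 with DAC in DAC-resistant cells. The log2 fold change of -0.25 did not pass (limma adjusted p = 0.096), with an interval of -0.44 to -0.06 before adjustment. Without the DAC library 1 it was -0.15 and without the DAC library 2 -0.36, neither of which passed (adjusted p = 0.29 and 0.06). It did pass among genes with a mean of at least 5 FPKM (adjusted p = 0.042) and with voom on recovered reads (-0.32, adjusted p = 0.011). DTX3L had 18.6 and 20.5 FPKM with DMSO and 18.7 and 19.6 with DAC, and these ranges overlapped. Its log2 fold change was -0.03, with an interval of -0.14 to 0.09 (limma adjusted p = 0.76). PARP12 had 2.09 and 2.13 FPKM with DMSO and 1.90 and 2.44 with DAC, the widest spread of the 5 in any group (SD 17.7% of the mean). Its log2 fold change was 0.02, with an interval of -0.20 to 0.24 (limma adjusted p = 0.92). The intervals of all 5 genes thus end below the smallest rise seen in parental cells.

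The difference between the 2 DAC effects was tested directly as an interaction in the same fit. It was negative for all 5 genes, which means that DAC moved each of them less far upward in DAC-resistant than in parental cells. By both thresholds 7.16% of all genes tested had such a lower effect and 3.46% a higher one, at an adjusted p under 0.05 the shares were 28.4% and 20.9%, and 5 of the 5 genes met both rules. By the adjusted p the 4233 lower and 3117 higher effects became 3493 and 4064 under quantile normalization, 3499 and 3925 under upper-quartile scaling and 3677 and 4182 with voom, so that balance depends on the scaling. The difference was -3.35 on the log2 scale for PARP9 (SE 0.079, limma adjusted p = 1.0e-06) and -2.35 for PARP10 (SE 0.112, limma adjusted p = 1.4e-05). It was -2.28 for PARP12 (SE 0.129, limma adjusted p = 2.9e-05), -2.06 for DTX3L (SE 0.068, limma adjusted p = 3.0e-06) and -1.95 for PARP14 (SE 0.051, limma adjusted p = 1.3e-06). The median was -2.28, beside -0.05 over all genes tested. It shares its libraries with the comparisons above and is no separate observation.

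**Figure D2:**
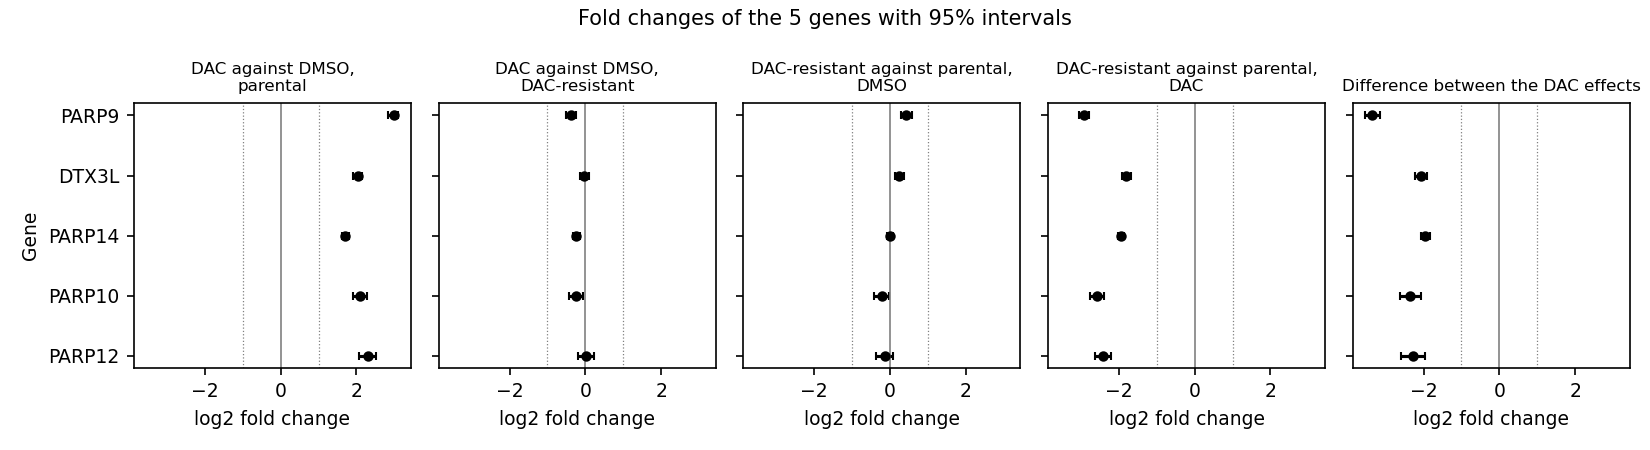
Log2 fold changes (horizontal axes, on log2(FPKM + 1)) of the 5 genes in 5 comparisons, with points for the estimates of limma, bars for 95% intervals and dotted lines at 1 and -1. The estimates lie above 1 for DAC in parental cells, between -0.38 and 0.02 for DAC in DAC-resistant cells, and below -1 in the last 2 panels.

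Without DAC, the question was whether the 5 genes already stood higher in DAC-resistant cells. They did not move together. Between DAC-resistant and parental cells under DMSO, 4.45% of all genes tested were raised and 4.28% lowered by both thresholds, and 31.3% were higher and 26.2% lower at an adjusted p under 0.05 (4668 and 3906 genes, which turned to 3810 and 4717 under upper-quartile scaling). Of the 5 genes 0 were raised or lowered by limma, and 3 had an adjusted p under 0.05. The median log2 fold change was 0.00, beside 0.02 over all genes tested. PARP9 was higher, at 6.66 and 7.13 FPKM against 4.84 and 4.85, a log2 fold change of 0.43 (SE 0.056, limma adjusted p = 6.9e-04) or 1.42-fold in mean FPKM. DTX3L was higher too, at 18.6 and 20.5 FPKM against 16.3 and 16.2 (log2 fold change 0.25, limma adjusted p = 0.0041). PARP10 was lower, at 7.15 and 6.75 FPKM against 8.16 and 8.39 (log2 fold change -0.22, limma adjusted p = 0.049). The call on PARP10 was lost under 4 of the other settings, for example with values rescaled to TPM (adjusted p = 0.13), and without any 1 of the 6 libraries outside the group of DAC-resistant cells with DAC. PARP12 had a log2 fold change of -0.14 (interval -0.36 to 0.08) and PARP14 of 0.00 (interval -0.09 to 0.09, and an estimate of -0.09 under upper-quartile scaling), and neither passed the test.

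Set against the level that DAC-treated parental cells reached, DAC-resistant cells with DMSO held 29.3% of the PARP14 FPKM, 28.2% of DTX3L, 18.0% of PARP10, 15.3% of PARP9 and 13.2% of PARP12. With DAC these shares were 24.5%, 27.6%, 14.7%, 11.3% and 13.6%. The direct test between the cell lines under DAC gave log2 fold changes of -2.92 for PARP9, -2.57 for PARP10, -2.42 for PARP12, -1.95 for PARP14 and -1.81 for DTX3L (adjusted p between 1.4e-07 and 1.7e-06 from limma). All 5 were lowered, where 9.17% of all genes tested were lowered and 5.29% raised by both thresholds, and 35.1% were lower and 32.0% were higher by the adjusted p. Those 5224 lower and 4765 higher genes turned to 4360 and 5644 when rescaled to TPM, 4632 and 5392 under quantile normalization and 4412 and 5949 with voom, and the 1366 lowered and 788 raised became 1161 and 1019 under quantile normalization and 1779 and 1702 with voom. The median over all genes tested was -0.03.

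The order of the levels in FPKM changed with treatment. FPKM divides by the annotated exon length of each gene, so this order and the shares below depend on those lengths. In parental cells with DMSO it was DTX3L, PARP14, PARP10, PARP9 and PARP12, from high to low, and neighbours in this order did not overlap between libraries. With DAC, PARP9 at 44.8 to 45.1 FPKM stood above PARP10 at 36.9 to 40.2, and the rest of the order was as before. In DAC-resistant cells the mean of PARP10 was again above that of PARP9, but their libraries overlapped with DMSO (6.75 to 7.15 and 6.66 to 7.13 FPKM) and with DAC (5.18 to 6.19 and 4.79 to 5.36 FPKM). As a share of the summed FPKM of the 5 genes, PARP9 made up 10.3% in both parental DMSO libraries, 20.1% and 20.6% with DAC, and in DAC-resistant cells 13.5% to 13.7% under DMSO and 10.5% to 12.3% under DAC. DTX3L took 34.4% to 34.7%, 31.0% to 31.9%, 37.7% to 39.4% and 42.7% to 42.8% in the same order of groups. PARP14 took 32.1% to 32.6% of the sum in DMSO-treated parental cells and 23.4% to 23.6% after DAC.

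PARP9 and DTX3L, whose proteins act as a pair and whose genes share the stretch printed above, did not keep a fixed ratio. PARP9 FPKM divided by DTX3L FPKM was 0.297 and 0.299 in parental cells with DMSO and 0.648 in both libraries with DAC. In DAC-resistant cells it was 0.358 and 0.348 under DMSO and 0.287 and 0.244 under DAC. The ratio in DAC-treated parental cells thus lay above the other 6 libraries. Its size depends on the exon lengths used, 8938 bases for PARP9 and 5768 for DTX3L. In DAC-treated parental cells the reads were 11014 and 11081 for PARP9 and 10966 and 11042 for DTX3L. An exact two-sided permutation test of such a ratio, with 2 libraries on each side, can reach no less than p = 0.333, so none is given. The annotated exons of the genes overlap by 139 bases on opposite strands, 1.6% of the exon length of PARP9 and 2.4% of that of DTX3L, and the sources used here do not state whether reads were counted by strand.

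**Figure D3:**
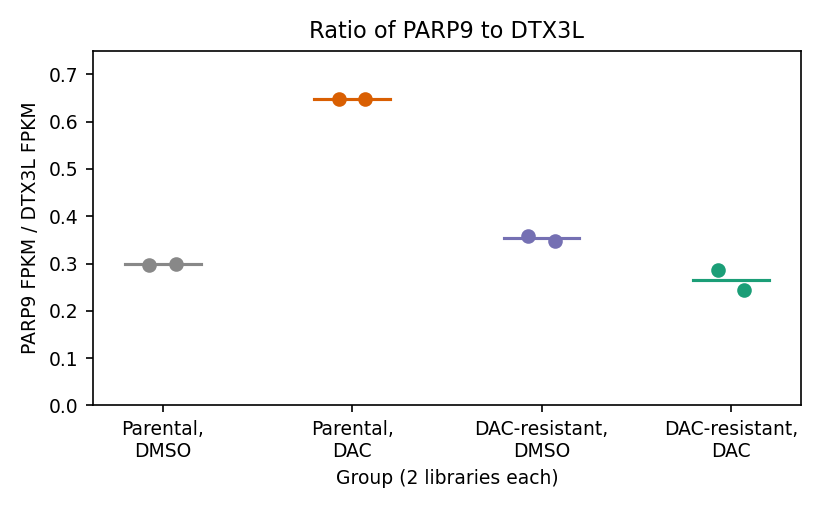
PARP9 FPKM divided by DTX3L FPKM (vertical axis, starting at 0) for each of the 8 libraries (points), with a bar at the mean of each group of 2. The ratio is 0.648 in both libraries of DAC-treated parental cells and at most 0.358 in the others.

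None of the 5 neighbours of the cluster on chromosome 3 rose with DAC in parental cells. PARP15, which lies between DTX3L and PARP14 and codes for another macrodomain PARP, had 1.76 and 1.70 FPKM in parental cells with DMSO and 1.74 and 1.79 with DAC. Its log2 fold change was 0.02, with an interval of -0.19 to 0.22 (limma adjusted p = 0.87). On the far side of PARP9, KPNA1 (an importin, a nuclear import adaptor) had a log2 fold change of -0.02 (adjusted p = 0.76) and WDR5B one of -0.24 (adjusted p = 0.03, but 0.089 with only the 4 libraries compared). Beyond PARP14, HSPBAP1 had 0.14 (adjusted p = 0.33) and SLC49A4 -0.21 (adjusted p = 0.23). In DAC-resistant cells with DMSO the neighbours went both ways against parental cells, with PARP15 lower by a log2 fold change of -0.94 (adjusted p = 1.4e-04), HSPBAP1 by -0.86 (adjusted p = 6.8e-04, and -1.49 with 0.1 FPKM added) and SLC49A4 by -0.51 (adjusted p = 0.016, but 0.053 without the filter on low values), and KPNA1 higher by 0.44 (adjusted p = 3.0e-04). PARP15 stood there at 0.462 and 0.388 FPKM.

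The genes beside PARP12 and PARP10 behaved less evenly. Next to PARP12, TBXAS1 (thromboxane synthase) rose with DAC in parental cells from 2.61 and 2.27 to 5.01 and 5.79 FPKM, a log2 fold change of 0.89 (limma adjusted p = 1.6e-04), and HIPK2 rose by 0.30 (adjusted p = 0.0011). TBXAS1 passed both thresholds with 0.1 FPKM added (1.11) and with voom (1.02). KDM7A, on the other side, fell by 0.24 (adjusted p = 0.045, but 0.067 to 0.084 under 4 of the other settings), and SLC37A3 was under the minimum for testing. Next to PARP10, PLEC (the cytoskeletal linker plectin) rose from 9.07 and 9.13 to 22.0 and 21.1 FPKM, a log2 fold change of 1.16 (adjusted p = 8.8e-07), and GRINA rose by 0.52 (adjusted p = 2.2e-05). PLEC was also higher in DAC-resistant cells with DMSO, by 0.77 (adjusted p = 5.7e-06), where PARP10 was lower. EPPK1 and SPATC1 were under the minimum. The interaction value was past both thresholds for PLEC (-1.25, limma adjusted p = 5.0e-06) and TBXAS1 (-1.15, adjusted p = 3.5e-04). It was -0.46 for GRINA (adjusted p = 2.7e-04) and -0.25 for HIPK2 (adjusted p = 0.015, but 0.083 under quantile normalization). For KDM7A it was positive (0.51, adjusted p = 0.011, and 1.10 with voom). GRINA, at 48.3 to 81.9 FPKM over the 8 libraries, shares 324 exon bases with PARP10 on the opposite strand, and SPATC1 shares 197, and without knowing the strand setting, reads there cannot be told apart.

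The other 13 genes of the PARP family were taken as the nearest family members, and 12 of them were tested. In parental cells DAC raised or lowered 0 of the 12 by both thresholds in limma. At an adjusted p under 0.05, 3 were higher and 3 lower. Their median log2 fold change was 0.00, against 2.09 for the 5 genes described here. TIPARP, a mono-ADP-ribosyltransferase induced by the aryl hydrocarbon receptor, came nearest, with a mean of 8.07 FPKM with DMSO and 16.2 with DAC (log2 fold change 0.92, adjusted p = 6.6e-06). ZC3HAV1, the antiviral zinc finger protein that lacks catalytic activity, rose from a mean of 21.8 to 28.2 FPKM (0.36, adjusted p = 2.0e-04), and PARP4, the vault PARP, rose by 0.20 (adjusted p = 0.043, but 0.3 under upper-quartile scaling). PARP2, a DNA repair PARP, fell by 0.28 (adjusted p = 0.0042), TNKS (tankyrase) fell by 0.26 (adjusted p = 0.0052) and PARP8 fell by 0.20 (adjusted p = 0.0043). PARP1, the main DNA damage PARP, had the highest mean of the 13, 33.2 FPKM with DMSO and 34.9 with DAC, and did not pass (0.07, adjusted p = 0.055). PARP11 was under the minimum, at means of 0.626 and 1.00 FPKM.

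In DAC-resistant cells DAC raised or lowered 0 of these 12, and at an adjusted p under 0.05, 2 were higher (TIPARP by 0.22 and ZC3HAV1 by 0.14) and 2 lower (PARP2 by a log2 fold change of -0.36 and PARP1 by -0.16). When only the 4 DAC-resistant libraries were fitted, PARP1 (adjusted p = 0.058), TIPARP (0.087) and ZC3HAV1 (0.13) no longer passed. The interaction test gave -0.70 for TIPARP (limma adjusted p = 1.7e-04), -0.23 for PARP1 and -0.21 for ZC3HAV1 (-0.11 and no longer past the test under upper-quartile scaling, adjusted p = 0.14, and with voom, 0.063), and was positive for TNKS and PARP8, at 0.35 each. Between the cell lines under DMSO, 4 of the 12 were higher and 5 lower in DAC-resistant cells at an adjusted p under 0.05. ZC3HAV1 was higher by 0.56 (adjusted p = 2.8e-05), PARP2 by 0.50, PARP16 by 0.36 and TNKS by 0.18. Of these, PARP16 no longer passed without the filter on low values (adjusted p = 0.077) or under upper-quartile scaling (0.058), and TNKS under quantile normalization (0.077) or upper-quartile scaling (0.16). PARP15 was lower by a log2 fold change of -0.94, PARP4 by -0.66, PARP1 by -0.43, PARP8 by -0.39 and PARP6 by -0.25. None of the 12 passed both thresholds there with 1 FPKM added. PARP15, at means of 1.73 FPKM in parental and 0.425 in DAC-resistant cells, did so with 0.1 FPKM added (log2 fold change -1.81) and with voom (-1.99).

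Among the other deltex ubiquitin ligases, DTX2 and DTX4 were tested. DTX4 was raised by DAC in parental cells, from a mean of 2.03 to 6.14 FPKM (log2 fold change 1.24, limma adjusted p = 2.4e-05), and stood at 1.70 and 1.67 FPKM in DAC-resistant cells without and with DAC. Its interaction value was -1.25 (adjusted p = 1.7e-04). DTX2 did not pass with DAC in parental cells (0.29, adjusted p = 0.063) and was higher in DAC-resistant cells with DMSO (0.53, adjusted p = 0.0062). DTX1 and DTX3 were under the minimum, and DTX1 was at 0 in both parental DMSO libraries and had a mean of 0.585 FPKM with DAC.

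Enzymes that remove ADP-ribose were followed with 7 genes, of which 5 were tested. With DAC in parental cells 0 were raised or lowered by both thresholds, 2 were higher and 1 lower at an adjusted p under 0.05, and the median log2 fold change was -0.03. ADPRH, which removes ADP-ribose from arginine, rose from a mean of 2.57 to 4.93 FPKM (0.73, limma adjusted p = 2.4e-04), and ADPRS, which removes it from serine, rose from 5.99 to 10.6 (0.73, adjusted p = 0.0071). MACROD1, a macrodomain hydrolase, fell by 0.39 (adjusted p = 0.031, but 0.079 without the filter on low values and 0.099 with only the 4 libraries compared). PARG, which cuts poly(ADP-ribose) chains, had means of 4.95 and 4.85 FPKM (adjusted p = 0.74). ADPRH and ADPRS each had an interaction value of -0.93 (adjusted p = 5.5e-04 and 0.013), and that of OARD1 was positive (0.49, adjusted p = 0.015). With 0.1 FPKM added, ADPRH (-1.25) and ADPRS (-1.04) passed both thresholds in the interaction test, as did ADPRH with voom (-1.19). In DAC-resistant cells OARD1 rose with DAC by 0.38 (adjusted p = 0.04, but 0.094 with only the 4 libraries compared). Against parental cells with DMSO, DAC-resistant cells had more MACROD1 (0.75, adjusted p = 0.0019) and ADPRS (0.45, adjusted p = 0.047, but 0.14 without the filter on low values) and less ADPRH (-0.65, adjusted p = 4.0e-04). MACROD2 and ADPRHL1 were under the minimum.

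NAD+ is the substrate of the PARPs, and 9 of 11 genes that make it or use it up outside the PARP family were tested. With DAC in parental cells 2 were higher and 6 lower at an adjusted p under 0.05, with a median log2 fold change of -0.30. CD38, a surface enzyme that cleaves NAD+, was the one lowered by both thresholds, from a mean of 3.46 to 0.676 FPKM (-1.41, limma adjusted p = 1.8e-05), and it stood at 2.19 and 2.21 in DAC-resistant cells without and with DAC. NAMPT, the enzyme of the salvage pathway from nicotinamide, rose from 1.72 to 2.71 FPKM (0.45, adjusted p = 7.3e-04), and NAPRT, which uses nicotinic acid, rose by 0.32 (adjusted p = 0.0012). QPRT, the enzyme of synthesis from tryptophan and the most abundant of the list, fell from 88.3 to 70.2 FPKM (-0.33, adjusted p = 1.8e-04). NMNAT1 fell by 0.48, NMNAT3 by 0.42 (with 0.1 FPKM added the log2 fold change was -1.16 and with voom -1.58, past both thresholds), NMRK1 by 0.30 and NADSYN1 by 0.23 (adjusted p between 0.0041 and 0.029). Without the filter on low values NMRK1 (adjusted p = 0.051) and NADSYN1 (0.05) no longer passed, nor did NADSYN1 with only the 4 libraries compared (0.062). In DAC-resistant cells with DMSO, 2 of the 9 were higher and 5 lower than in parental cells, BST1 (a relative of CD38) furthest, at -1.23 (adjusted p = 3.4e-05). With DAC in DAC-resistant cells BST1 rose by 0.36 (adjusted p = 0.038) and NAPRT fell by 0.22 (adjusted p = 0.032), and neither passed with only the 4 libraries compared (0.12 and 0.087). The interaction value was positive for 6 of the 9 and negative for 2 at an adjusted p under 0.05. CD38, at 1.42 (limma adjusted p = 1.3e-04), was the 1 past both thresholds. NMNAT3 (0.40) also passed both with 0.1 FPKM added (1.13) and with voom (1.53). Without the filter on low values the interaction no longer passed for NMNAT3 (adjusted p = 0.091) and NMRK1 (0.087), nor for NAMPT when rescaled to TPM (0.071). NMNAT2 and SARM1 were under the minimum.

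The transcripts of 3 transcription factors of the interferon response, STAT2, IRF9 and IRF1, were followed in the same libraries. All 3 rose with DAC in parental cells at an adjusted p under 0.05, and 2 were raised by both thresholds. STAT2 went from a mean of 19.9 to 52.7 FPKM (log2 fold change 1.36, limma adjusted p = 9.3e-07) and IRF9 from 0.657 to 3.11 (1.31, adjusted p = 7.7e-05). IRF1 rose from 2.78 to 4.85 FPKM (0.63, adjusted p = 2.1e-04). In DAC-resistant cells IRF1 rose with DAC by 0.29 (adjusted p = 0.035, but 0.1 with only the 4 libraries compared), and STAT2 (-0.10) and IRF9 (-0.02) did not pass. With DMSO, STAT2 (0.42, adjusted p = 1.5e-04) was higher in DAC-resistant than in parental cells, as were 31.3% of all genes tested, and IRF9 and IRF1 did not pass. All 3 interaction values were negative, -1.46 for STAT2, -1.33 for IRF9 and -0.34 for IRF1 (adjusted p between 5.5e-06 and 0.018).

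**Figure D4:**
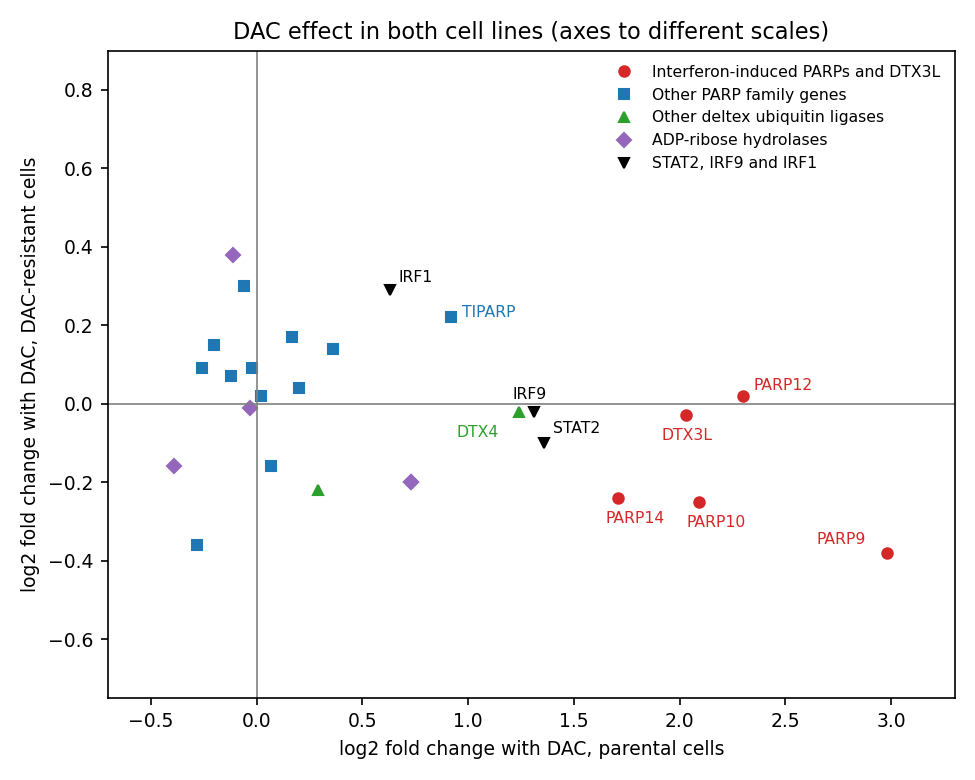
Log2 fold change with DAC in parental cells (horizontal axis) and in DAC-resistant cells (vertical axis, to a larger scale) for each tested gene of 5 lists, marked by colour and shape. The 5 genes described here lie at 1.71 to 2.98 on the horizontal axis and -0.38 to 0.02 on the vertical one, and the other PARP family genes lie at or below 0.92 on the horizontal axis, while ADPRH and ADPRS share one point.

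The genes whose pattern over the 8 libraries was most like that of each of the 5 were found by the distance between log2(FPKM + 1) values, each taken relative to the mean of the parental DMSO libraries. For PARP9 these were OAS1 (distance 0.455), ODF3B (0.472), VCX3B (0.554), TDRD6 (0.567) and USP18 (0.576). For PARP10 they were SAMD9L (0.261), COL6A1 (0.369), SAMD9 (0.383), IL2RG (0.41) and ENSG00000278330 (0.458). OAS1, USP18, SAMD9L and SAMD9 are known interferon-stimulated genes, and VCX3B and TDRD6 are known for expression in the testis. PARP14 was nearest to MYD88 (0.159), an adaptor of Toll-like receptors, and then to DNAH8, CD36, RNF213 and ALPK3 (0.246 to 0.3). DTX3L was nearest to LINC02623 (0.179) and then to ACP5, DMRTB1, H2BC18 and JAK3 (0.22 to 0.285). PARP12 was nearest to LAMB2 (0.172), a laminin chain, and then to HDC, NDN, CMKLR1 and NR5A1 (0.296 to 0.326). The 5 genes themselves were not ranked here, and no other gene was among the nearest of more than 1 of them. The distance measures only likeness over these libraries, and the part of each library in it was not measured.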

How the data were processed

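RNA-seq libraries had been made from total RNA with the KAPA mRNA HyperPrep kit. According to the labels and the submitters' processing notes, the authors trimmed reads with cutadapt 1.9.1, aligned them to hg38 with HISAT2 2.1.0, sorted them with SAMtools 1.6 and counted them on Ensembl genes with HTSeq 0.13.5. Strand use in counting is not given in the sources used here. The authors deposited FPKM values multiplied by 1000, which were divided by 1000 here. The rows of 1264 repeat families were not used.

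With GENCODE v44 exon lengths, 87.11% of the gene values were whole reads (within 0.02 reads). Reads of all 5 genes were recovered this way and served as depth and for 1 alternative. Summed over genes, recovered reads exceeded the scaling totals implied by the values (104% to 105% of them), for an unknown reason.

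Values on log2(FPKM + 1) of genes that reached 1 FPKM in 2 or more of 8 libraries were fitted with limma 3.58.1 (R 4.3.3) to 4 group means, with trended moderated variances (2.5 prior and 4 residual degrees of freedom). With 2 libraries per group, p-values rest on the spread of each gene over the 4 groups, drawn towards a spread estimated over all genes. A gene is called raised or lowered where the unadjusted p is 0.01 or less and the log2 fold change 1 or more in size. Genes called higher, lower, risen or fallen have a Benjamini-Hochberg adjusted p under 0.05 over all 14899 genes. The fit was tested on simulated data.

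The 5 genes, the gene lists and the rules were chosen with earlier results of these data known. Named genes are the 5, list genes that passed in the comparison described, were the best expressed or were near 0, the 2 nearest protein-coding genes on each side in the annotation, and the 5 genes of smallest distance. A few list genes that did not pass (PARG, PARP15 and DTX2) were named after their values were seen. ADPRS was found under its older symbol, ADPRHL2. Another gene was left out of the lists and is not reported here, and tested list genes that are not named (PARP3 and TNKS2) are in the counts. Promoters came from RefSeq (GRCh38.p14). Alternatives were another pseudocount, other filters, TPM, quantile and upper-quartile scaling, a replicate block, fewer libraries, no variance trend, voom with recovered reads, a call by adjusted p and, for the 5 genes, the omission of each library.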

Additional observations from a re-analysis of the deposited data

Results flagged for a closer look

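The effect of DAC differed between DAC-resistant and parental cells for all 5 genes, by limma's test of the difference itself. On the log2 scale the difference was -3.35 for PARP9, -2.06 for DTX3L, -1.95 for PARP14, -2.35 for PARP10 and -2.28 for PARP12, and of all genes tested 28.4% had a lower and 20.9% a higher effect in DAC-resistant cells at an adjusted p under 0.05, a balance that turned under quantile normalization, upper-quartile scaling and voom. Groups of 2 libraries are too small to look for a single library that stands apart.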

How the results depend on the processing

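The counts of the 5 genes raised or lowered were 5, 0, 0, 5 and 5 in the 5 comparisons (DAC in parental cells, DAC in DAC-resistant cells, the cell lines with DMSO, the cell lines with DAC, and the difference between the DAC effects) under every alternative run. At an adjusted p under 0.05, the 2 genes lower with DAC in DAC-resistant cells became 0 when only the 4 libraries compared were fitted, 0 to 2 with each library left out, and 3, with PARP10, at a mean of at least 5 FPKM and with voom. The changes whose sign turned were not called. For DTX3L and PARP12 with DAC in DAC-resistant cells, leaving out each library in turn gave -0.10 to 0.04 and -0.10 to 0.15, and for PARP14 between the cell lines with DMSO, quantile normalization and upper-quartile scaling gave -0.09 each and leaving out each library -0.03 to 0.03. The cause was not tested.

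Replicate numbers did not pair the libraries, with correlations of the replicate differences of -0.022 to 0.02 between groups. With the number as a replicate block the counts were 5, 0, 0, 5 and 5, and 5, 2, 3, 5 and 5 at an adjusted p under 0.05. Over all genes, the 1387 of 14899 changed by DAC in parental cells became 573 of 7239 with a mean of at least 5 FPKM and 2276 of 14899 with voom. Their split, 993 raised and 394 lowered, became 843 and 580 under quantile normalization and 1329 and 947 with voom. For the difference between the DAC effects 516 and 1067 became 686 and 916, and 1002 and 1265. The median of all genes with DAC in parental cells moved from 0.057 to -0.0526 under quantile normalization, small beside the changes of the 5 genes. PARP12, with 334 to 420 reads outside DAC-treated parental cells, is the least precise.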
